A study of Homo sapiens with 42 samples.

Results

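CXCL2 and CCL20, the genes of a pair of secreted chemokines, were followed in Hep3B cells, a human hepatoma line, over 16 h with a medium enriched in pro-inflammatory cytokines. The members are all probes that name only CXCL2 or only CCL20 in the array annotation: probe 5465 for CXCL2 and probe 11593 for CCL20, thus 2 of 13824 probes on the array and 2 of 5631 genes. Both genes were picked because of their changes between the media in these same arrays, CXCL2 for an early and CCL20 for a late difference, so those changes are given as a description without p-values. The groups were CM, the cytokine-enriched medium, and NCM, its control medium, each sampled at T0 and then after 15 min, 30 min, 1 h, 3 h, 6 h or 16 h, and the labels name no other agent. Each of the 14 groups had 3 arrays, 1 per experiment, and the CM and NCM culture of a time and experiment shared a batch of cells, which gives 3 pairs per time and 42 arrays in all. The makeup of either medium is not given in the sources used here, and the cells are 1 hepatoma line.

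Chemokines are small secreted proteins that guide leukocytes along concentration gradients through receptors coupled to G proteins. CXCL2 binds CXCR2 and draws neutrophils, while CCL20 binds CCR6 and draws memory T cells that make interleukin-17, B cells and immature dendritic cells. Both genes are known targets of the transcription factor NF-kappaB, which interleukin-1 and tumour necrosis factor activate. The comparison asked, at each time, how the amount of each mRNA in CM cultures stood to that in their NCM partners.

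CXCL2 lies on chromosome 4, at chr4:74097040-74099195, and CCL20 on chromosome 2, at chr2:227813842-227817556, both in GRCh38.p14. The 120 bases just before each annotated start are shown, from RefSeq in GRCh38.p14, because both hold a match to the 10-base NF-kappaB consensus, in capitals. They run 5′ to 3′ on the strand of the gene.
CXCL2, chr4:74099196-74099315, minus strand: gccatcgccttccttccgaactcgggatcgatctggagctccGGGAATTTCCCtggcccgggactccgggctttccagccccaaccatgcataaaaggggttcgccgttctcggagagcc
CCL20, chr2:227813722-227813841, plus strand: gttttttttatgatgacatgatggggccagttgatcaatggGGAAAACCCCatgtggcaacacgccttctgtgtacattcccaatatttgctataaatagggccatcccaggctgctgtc
In CXCL2 the capitals are 2 overlapping matches, 1 on each strand, and the first begins 78 bases before the start. In CCL20 the single match is read on the opposite strand and begins 79 bases before the start. Of 35116 RefSeq promoters searched on both strands over 250 bases before the start, 5.21% held a match. The consensus was GGGRNWYYCC, with R for A or G, N for any base, W for A or T and Y for C or T. A match describes letters only, and binding was not measured.

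All values are log2 of the quantile normalized intensity, and differences are CM minus NCM. Arrays had mean deposited intensities of 0.9989 to 1.001 and medians of 0.354 to 0.807. The lowest normalized intensity of CXCL2 was 0.413 and that of CCL20 0.521, both above the floor of 0.0812, and no other probe carried the same values as either at any time. The 9 hepatocyte markers summed to an intensity of 17.8 to 26.6 in CM and 19.0 to 26.3 in NCM. Of 8 leukocyte markers 3 were measured (PTPRC, CD14 and CD74), and they summed to 2.43 to 3.44 in CM and 2.18 to 3.47 in NCM. Of 6 fibroblast or endothelial markers 4 were measured, with sums of 1.40 to 2.58 in CM and 1.25 to 2.58 in NCM. The ranges of the media overlapped for each list, 0 markers passed limma's test between the media, and the part of other cells in the results was not tested. In bulk RNA a change in the number of cells and a change in RNA per cell cannot be told apart.

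CXCL2 was higher in CM for a limited time, between 30 min and 3 h, with the widest gap at 1 h. At T0 its log2 intensity was -0.42, -0.37 and -0.40 in CM cultures of experiments 1, 2 and 3, against -0.02, -0.68 and -0.64 in NCM cultures. The CM values lay inside the NCM range, and CM was the higher in 2 of 3 pairs. At T0, 9.47% of all probes were higher in CM in 3 of 3 pairs and 1.19% had all CM above all NCM arrays. At 15 min CXCL2 had -0.99, -1.28 and -0.31 in CM, against -0.38, -0.77 and -0.83 in NCM. CM was the lower of the pair in experiments 1 and 2 and the higher in experiment 3. Of all probes, 11.9% were higher in 3 of 3 pairs and 2.71% without overlap at 15 min.

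At 30 min CXCL2 had -0.11, -0.72 and -0.09 in CM, against -0.87, -1.05 and -0.61 in NCM. CM was higher in 3 of 3 pairs, although the groups still overlapped, and 8.8% of all probes were higher in 3 of 3 pairs at that time and 1.17% without overlap. At 1 h CXCL2 had 0.17, 0.09 and 0.72 in CM, against -0.72, -1.08 and -0.15 in NCM. All CM values lay above all NCM values, as they did for 2.4% of all probes, and 15.6% were higher in 3 of 3 pairs. At 3 h CXCL2 had 0.18, 0.22 and 0.50 in CM, against -0.66, -0.63 and 0.10 in NCM. The groups again did not overlap, as held for 2.58% of all probes, and 14.6% were higher in 3 of 3 pairs.

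At 6 h CXCL2 had -0.10, 0.13 and 0.16 in CM, against -0.07, 0.15 and -0.21 in NCM. At 16 h it had -0.15, 0.47 and -0.80 in CM, against -0.14, 0.09 and -0.59 in NCM. The media overlapped at both times, and CM was the higher of the pair in 1 of 3 pairs at each. The spread at 16 h was wide in CM, with an SD of 0.63, against 0.35 in NCM.

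**Figure D1:**
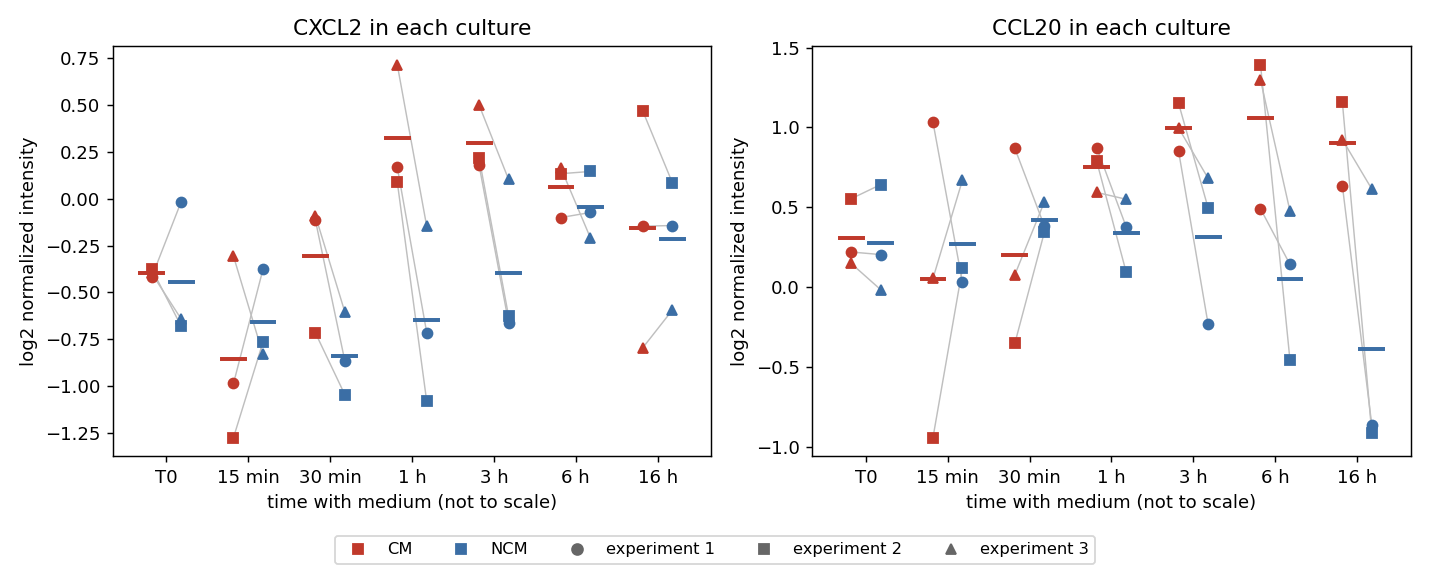
Log2 normalized intensity of CXCL2 (left panel) and CCL20 (right panel) in each culture, with CM in red left of NCM in blue at each time. Symbols are experiments, grey lines join the cultures of a pair and bars are group means. CXCL2 in CM stands above NCM without overlap at 1 h and 3 h, and CCL20 does so from 1 h to 16 h.

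The CXCL2 difference was 0.53 at 30 min, 0.97 at 1 h and 0.69 at 3 h, each with an SE of 0.22 from limma (n = 3 pairs). The fold was 1.97 at 1 h. The pairs of that time were close together, at 0.89, 1.17 and 0.86, with an SD of 0.17. At the remaining times it was 0.05 at T0, -0.20 at 15 min, 0.11 at 6 h and 0.06 at 16 h, none larger than its SE. Over 30 min, 1 h and 3 h CXCL2 was higher in 9 of 9 pairs, times picked after the values were seen, as were 0.318% of all probes. Of all probes, 0.174% had a difference at 1 h as high as that of CXCL2 or higher. CXCL2 was picked for an early difference, which favours such a place.

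Group means show where each medium stood. In CM the mean of CXCL2 was -0.40 ± 0.02 at T0 and 0.33 ± 0.34 at 1 h (SD, n = 3). In NCM it was -0.45 ± 0.37 at T0, -0.84 ± 0.22 at 30 min and -0.65 ± 0.47 at 1 h (SD, n = 3). NCM was thus at its lowest mean at 30 min and at its highest, -0.05 ± 0.18, at 6 h (SD, n = 3), when the gap had closed.

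CCL20 went apart later and stayed apart to the last time measured. At T0 it had 0.22, 0.55 and 0.15 in CM cultures of experiments 1, 2 and 3, against 0.20, 0.64 and -0.01 in NCM cultures. The pairs differed by at most 0.16 in size. At 15 min CCL20 had 1.03, -0.94 and 0.06 in CM, against 0.03, 0.12 and 0.67 in NCM. The CM cultures spanned the whole range of NCM, and the SD of the pair differences was 1.09. At 30 min it had 0.87, -0.35 and 0.08 in CM, against 0.38, 0.34 and 0.53 in NCM, with CM higher in experiment 1 alone.

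At 1 h CCL20 had 0.87, 0.79 and 0.59 in CM, against 0.38, 0.09 and 0.55 in NCM. The groups did not overlap, as held for 2.4% of all probes, and 15.6% were higher in 3 of 3 pairs. In experiment 3, however, the media differed by 0.04. At 3 h it had 0.85, 1.15 and 1.00 in CM, against -0.23, 0.50 and 0.68 in NCM. From 3 h on the CM cultures were above NCM in every pair and without overlap. Of all probes, 2.58% were without overlap at 3 h and 14.6% higher in 3 of 3 pairs.

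At 6 h CCL20 had 0.49, 1.39 and 1.30 in CM, against 0.14, -0.46 and 0.48 in NCM. Groups without overlap in this direction made up 2.08% of all probes at 6 h, and 13.3% were higher in 3 of 3 pairs. At 16 h it had 0.64, 1.16 and 0.92 in CM, against -0.87, -0.91 and 0.61 in NCM. The NCM culture of experiment 3 stayed near its CM partner at 16 h, while those of experiments 1 and 2 were far below theirs. Of all probes, 2.48% were without overlap at 16 h and 13.3% higher in 3 of 3 pairs.

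The CCL20 difference was 0.41 at 1 h, 0.68 at 3 h, 1.01 at 6 h and 1.29 at 16 h, each with an SE of 0.36 from limma (n = 3 pairs). The fold at 16 h was 2.45. The pairs at 16 h were 1.50, 2.07 and 0.31, with an SD of 0.90, so the size of the difference varied widely between experiments. Experiment 2 had the largest pair difference at 1 h, 6 h and 16 h, and experiment 1 at 3 h. Without experiment 2 the difference was 0.27 at 1 h, 0.70 at 3 h, 0.58 at 6 h and 0.91 at 16 h. Without experiment 1 it was 0.48 at 3 h. Before that it was 0.03 at T0, -0.22 at 15 min and -0.22 at 30 min. CCL20 was higher in CM in 12 of 12 pairs from 1 h on, as were 0.137% of all probes. These times were picked after the values were seen, and the 12 pairs come from 3 experiments.

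The mean of CCL20 in CM at 3 h was close to those that followed. The CM mean was 0.75 ± 0.14 at 1 h, 1.00 ± 0.15 at 3 h, 1.06 ± 0.50 at 6 h and 0.91 ± 0.26 at 16 h (SD, n = 3). In NCM it was 0.34 ± 0.23 at 1 h, 0.32 ± 0.48 at 3 h, 0.05 ± 0.47 at 6 h and -0.39 ± 0.87 at 16 h (SD, n = 3). Between 3 h and 16 h the gap widened while NCM means were lower and CM means were not higher at the last time. The SDs of NCM at these times are as large as the steps between its means.

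**Figure D2:**
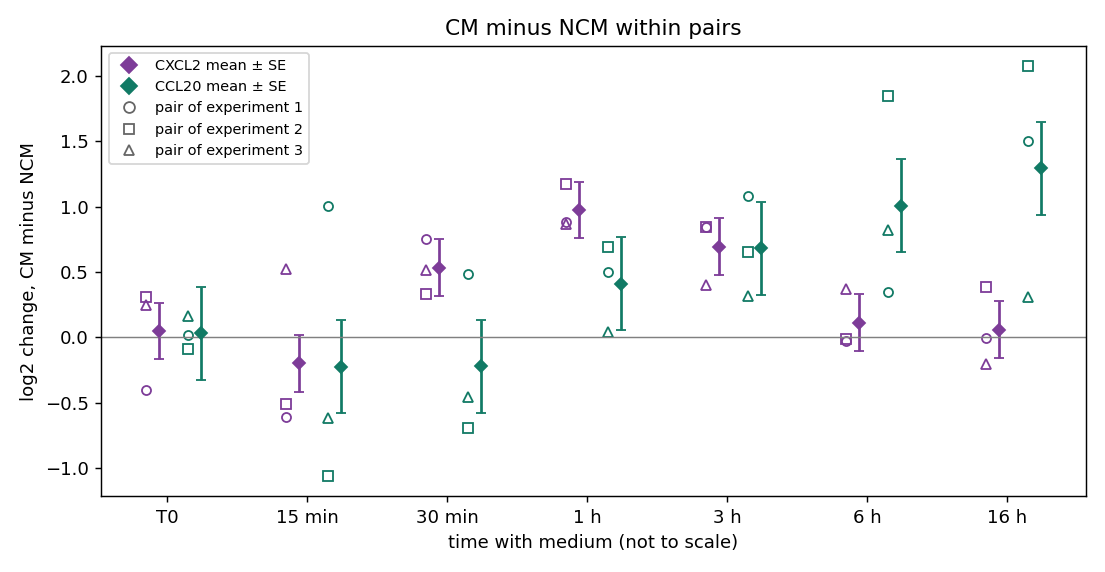
Log2 change, CM minus NCM, of CXCL2 (purple) and CCL20 (green) at each time. Open symbols are the pairs of the 3 experiments and diamonds are means with SE from limma. CXCL2 peaks at 0.97 at 1 h and is back near 0 at 6 h, whereas CCL20 reaches 1.29 at 16 h.

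Averaged over 15 min, 30 min and 1 h, CXCL2 had 0.44 (SE 0.13) and CCL20 -0.01 (SE 0.21), with CM higher in 7 of 9 pairs and 5 of 9 pairs. Averaged over 3 h, 6 h and 16 h, CXCL2 had 0.29 (SE 0.13) and CCL20 0.99 (SE 0.21), with CM higher in 5 of 9 pairs and 9 of 9 pairs. Over all probes 12.2% were higher in at least 7 of 9 early pairs and 0.441% in 9 of 9 late pairs. The late mean of CCL20 was the second highest of all probes, a rank favoured by its choice for a late difference. Its late minus early difference was 1.01 (SE 0.29, and 0.57 without experiment 2), against -0.15 (SE 0.18) for CXCL2. The late mean of CXCL2 holds its difference at 3 h. By experiment, the late mean of CCL20 was 0.98, 1.53 and 0.48 in experiments 1, 2 and 3, and the early mean of CXCL2 was 0.34, 0.33 and 0.63. The early mean of CCL20 was 0.66 in experiment 1 but -0.35 and -0.34 in experiments 2 and 3. The 9 pairs come from 3 experiments, and the labels do not say whether an experiment kept its batch of cells across times.

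Across all probes, limma with Benjamini-Hochberg adjustment, at a threshold of 0.05, called 0% at 1 h, 0.00723% at 16 h and 0.0434% for the late mean, and 0 of the 2 members at each. Unadjusted p was under 0.05 for 605 probes (4.38%) at 1 h, 658 (4.76%) at 16 h and 826 (5.98%) for the late mean. Since the members were picked on these contrasts, nothing is read from this count.

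The members were also set against each other. The correlation of their 21 pair differences was 0.07. Over the 21 CM arrays their log2 intensities correlated at 0.59 and over the 21 NCM arrays at -0.37. These points share arrays and times, and the correlations are a description.

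NCM cultures show how each gene behaved with time in the control medium. The choice of the genes did not use this comparison as such, but the same NCM values enter the differences that it used. A low NCM value raises a difference, so the choice favours low NCM values late for CCL20 and early for CXCL2. The p-values below are therefore not independent of the choice. By limma's F test over the 7 times CXCL2 had F = 1.76 (21 arrays, adjusted p = 1.00, unadjusted p = 0.165) and CCL20 F = 1.12 (adjusted p = 1.00, unadjusted p = 0.39). That test called 0.0145% of all probes, and 1.67% had an unadjusted p under 0.05. From T0 to 16 h CXCL2 differed in NCM by 0.23 (SE 0.29, 95% interval -0.39 to 0.85, n = 3 arrays each, limma adjusted p = 0.998). CCL20 differed by -0.67 (SE 0.37, 95% interval -1.44 to 0.11, n = 3 arrays each, limma adjusted p = 0.998), lower on average at 16 h. Neither passed the threshold, limma called 0% of probes in this comparison, with 520 (3.76%) at an unadjusted p under 0.05. The CCL20 difference was -0.22 without experiment 2 and -1.31 without experiment 3, and that of CXCL2 was -0.040 without experiment 2. The NCM arrays of CCL20 at 16 h were split, 2 of them below every T0 culture and 1 within the T0 range.

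Probes with adjoining numbers gave a local comparison, although the layout of the array is not given in the sources used here. The probes before and after CXCL2, which name no gene, had -0.47 and 0.23 at 1 h. Those beside CCL20, of CHAD and ZNF764, had 0.24 and 0.27 at 16 h. At 1 h, however, the ZNF764 probe had 0.75, more than the 0.41 of CCL20 at that time. Over the 21 pairs the probe after each member correlated with it, at 0.58 for CXCL2 and 0.54 for CCL20, and the part of position on the array in either result was not tested.

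Of 40 other chemokine ligands listed, 17 were measured, each represented by its brightest probe. The lists were drawn up with earlier results of these arrays known. At no time, and in neither mean, did a ligand pass the test over all probes in either direction. Their median difference was 0.07 in the early mean, with 11 above 0, and 0.05 in the late mean, with 11 above 0. The medians of all 5631 genes were -0.01 and 0.00, with 48.1% and 50.4% of genes above 0. At T0 12 of the 17 ligands were above 0. None of the 17 was higher in all 9 early or all 9 late pairs, as were 0.373% and 0.479% of all genes.

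CXCL3, a close relative of CXCL2 with a probe of its own, was higher in CM in 3 of 3 pairs at 1 h and 3 h but not at 30 min. It had -0.83, -0.996 and -0.74 in CM at 1 h, against -1.98, -1.26 and -1.53 in NCM. These groups did not overlap, as held for 2.4% of all probes, and 15.6% were higher in 3 of 3 pairs. The difference of 0.74 (SE 0.29) was followed by 0.59 at 3 h, 0.37 at 6 h and 0.06 at 16 h. At 3 h 14.6% of all probes were higher in 3 of 3 pairs. At 30 min, where CXCL2 had 0.53, CXCL3 had -0.39 and was lower in 3 of 3 pairs, and the correlation of both over 21 pairs was 0.16. CXCL1, CXCL2 and CXCL3 have closely similar transcripts, and signal of one on the probe of another cannot be told apart here.

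CXCL8, another CXCR2 ligand that draws neutrophils, had 0.43 at 1 h and 0.48 at 3 h on its brightest probe. Its other probes had 0.58 and -0.14 at 1 h and 0.66 and 0.34 at 3 h. CXCL13, which draws B cells, had the highest early mean of the list, at 0.47. At T0, however, it was already 0.55 and higher in 3 of 3 pairs, as were 9.47% of all probes. CXCL16, a ligand of CXCR6, had an early mean of 0.23 and a late mean of -0.12. CCL2, which draws monocytes, had a late mean of 0.28. CCL8, also a monocyte attractant, had the lowest late mean, -0.64 (SE 0.34). None of these genes passed the test. Of 22 chemokine receptors listed 1 was measured, CXCR4, the receptor of CXCL12, with -0.35 in the early and 0.17 in the late mean, so neither CXCR2 nor CCR6 can be described.

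**Figure D3:**
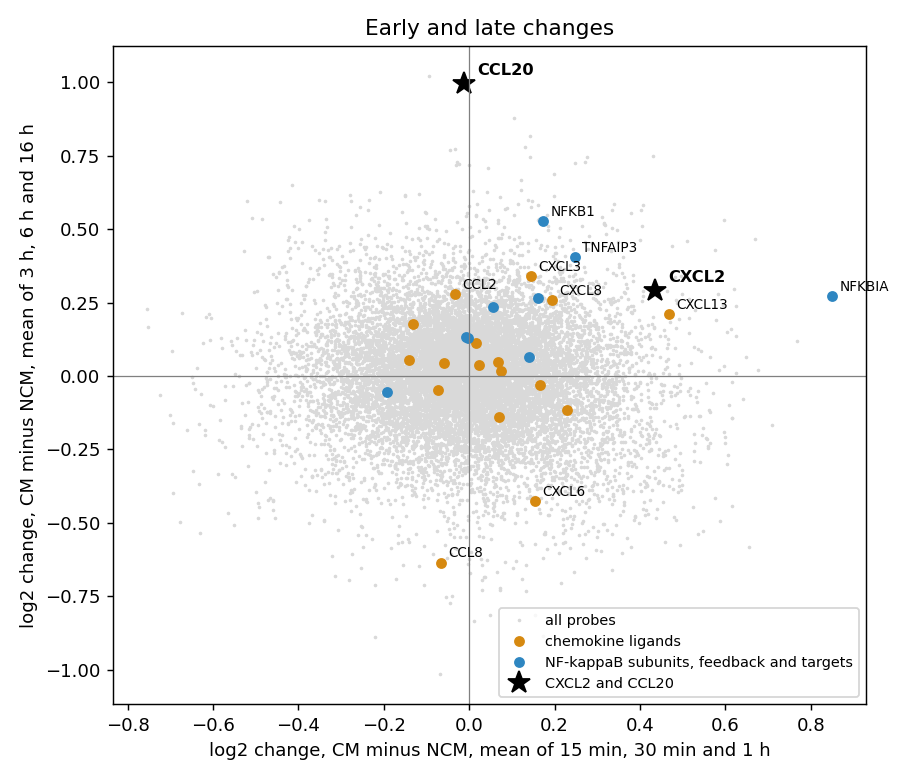
Mean log2 change, CM minus NCM, over 15 min, 30 min and 1 h (horizontal axis) and over 3 h, 6 h and 16 h (vertical axis) for all probes (grey), 17 other chemokine ligands (orange) and 9 NF-kappaB genes (blue), with CXCL2 and CCL20 as stars. CCL20 stands near the top with an early mean of -0.01, and CXCL2 lies at 0.44 early and 0.29 late.

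The NF-kappaB list, with 9 of 19 genes measured, had 0 genes past the test in either direction at any time on their brightest probes. Its median was 0.14 in the early mean, with 6 above 0, and 0.23 in the late mean, with 8 above 0. Of all genes 48.1% and 50.4% were above 0 in these means, and at T0 4 of the 9 genes were. NFKBIA, which encodes the inhibitor that NF-kappaB induces against itself, had a course like that of CXCL2, with 1.09 at 30 min, 1.23 at 1 h, 0.69 at 3 h and 0.11 at 6 h (SE 0.27). At 1 h it had 0.57, -0.04 and -0.55 in CM, against -1.02, -1.54 and -1.14 in NCM, without overlap, as held for 2.4% of all probes. Over 21 pairs NFKBIA correlated with CXCL2 at 0.57 and with CCL20 at -0.10. The probe numbered after CXCL2, which names no gene, correlated with CXCL2 at 0.58.

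NFKB1, the gene of the p105 and p50 subunits, had 0.68 at 1 h and 1.22 at 3 h on its brightest probe, and its other probes had 0.17 and -0.18 at 1 h and 0.18 and 0.15 at 3 h. TNFAIP3, the gene of the feedback inhibitor A20, kept a positive difference through 16 h, with 0.43 at 1 h, 0.42 at 3 h, 0.29 at 6 h and 0.50 at 16 h (SE 0.30). It was higher in 8 of 9 late pairs, as were 3.15% of all probes in at least 8. TNFAIP3 correlated with CCL20 at 0.45 and with CXCL2 at 0.05. TNFAIP2 was higher in 9 of 9 late pairs with a mean of 0.27, the 1 gene of the list that was, next to 0.479% of all genes. SOD2 had 0.13 in the late mean and 0.16 at 16 h on its brightest probe. On its other probe it had 0.82 and 1.56, more than CCL20 at 16 h.

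Matches to the NF-kappaB consensus were found before the starts of 3 of these 9 genes, NFKB1, NFKBIA and TNFAIP3. Of all promoters searched 5.21% held a match, and the list was drawn up from genes of that pathway. Promoters of 12 of the 17 other chemokine ligands were given in the RefSeq table, and 4 held a match, those of CXCL3, CXCL5, CXCL6 and CXCL11. Of these, CXCL6 had a late mean of -0.43 (SE 0.30), with CM higher in 3 of 9 pairs, and it did not pass the test.

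**Figure D4:**
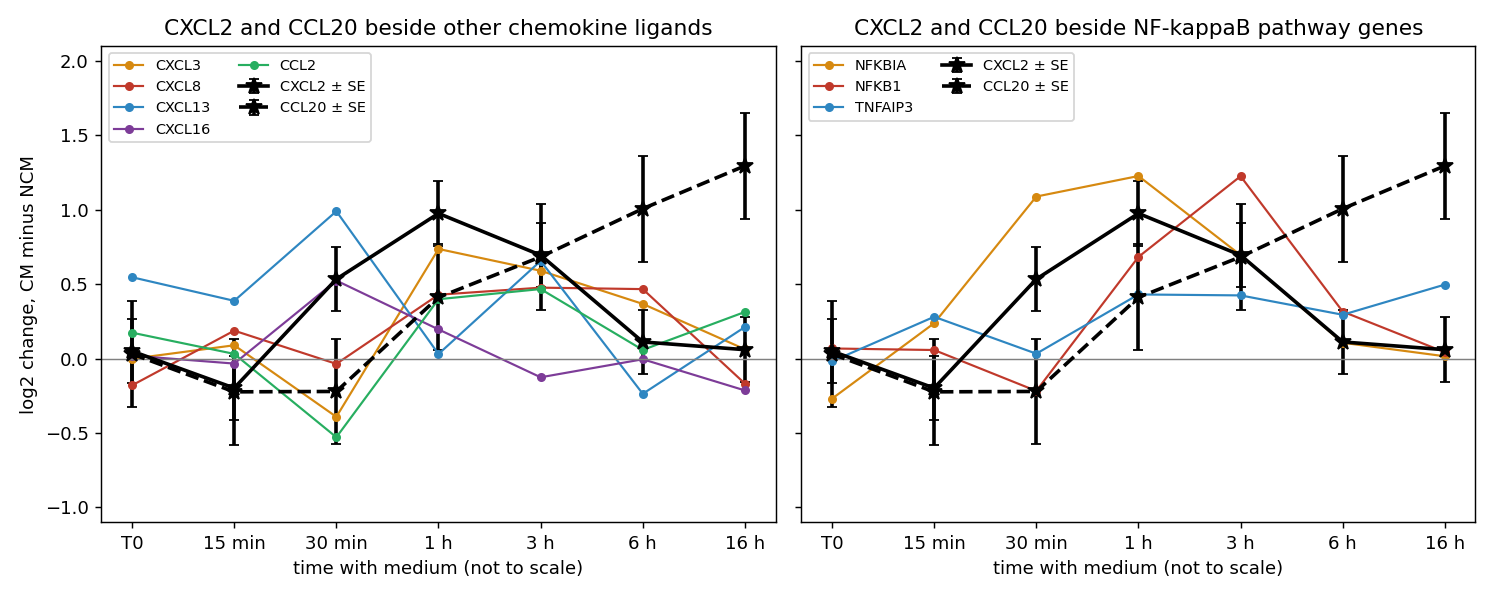
Log2 change, CM minus NCM, of CXCL2 (solid black) and CCL20 (dashed black), with SE, at each time beside 5 other chemokine ligands (left panel) and 3 NF-kappaB genes (right panel), all means of 3 pairs. NFKBIA is at 1.23 and CXCL2 at 0.97 at 1 h and both are near 0 at 16 h, where CCL20 is at 1.29 and TNFAIP3 at 0.50.

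Of the 14 receptors and adaptors of interleukin-1, tumour necrosis factor and interleukin-6 signalling listed, 8 were measured. On their brightest probes 0 passed in either direction. Their median was 0.06 early and 0.04 late. TRAF6, an adaptor between the interleukin-1 receptor and NF-kappaB, had an early mean of 0.58. It was higher in CM in 8 of 9 early pairs, as were 3.47% of all probes in at least 8. IL1RAP, the shared chain of the interleukin-1 receptor, had a late mean of 0.42 and correlated with CCL20 at 0.59. It was higher in CM in 8 of 9 late pairs, as were 3.15% of all probes in at least 8. Correlations with CCL20 went both ways among the listed genes. CXCR4 had 0.58, whereas CCL8 had -0.63, CXCL6 -0.58, MYD88 -0.52, CXCL13 -0.51 and TRAF6 -0.46. IL6ST, the signalling chain of the interleukin-6 receptor, had 0.59 at 1 h and 0.71 at 3 h and correlated with CXCL2 at 0.51. It was higher in 3 of 3 pairs at both times, as were 15.6% and 14.6% of all probes. MYD88, an adaptor of the interleukin-1 and Toll-like receptors, had an early mean of 0.25. IRAK2, of the interleukin-1 receptor-associated kinase family, had 1.28 at 16 h on its brightest probe and 0.22 on its other. IL1R1, a receptor of interleukin-1, had 0.05 in the late mean on its brightest probe and 0.74 on its other.

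Likeness to each member was measured as Pearson's r over the 21 pair differences, among the brightest probes of 5630 other genes. For CXCL2 the 5 most alike were HLF at 0.72, CAB39L at 0.69, NDUFS1 at 0.66, ACSS3 at 0.65 and PRDM10 at 0.65. HLF, a liver transcription factor gene, had 0.36 at 1 h and CAB39L 0.64, both smaller than CXCL2. For CCL20 they were TSNAX at 0.87, SPAG7 at 0.86, ACTMAP at 0.84, LPCAT3 at 0.84 and COX7A2L at 0.81. Their differences at 16 h ran from 0.32 to 0.49, well under that of CCL20. The points share arrays and experiments, and no chemokine was among either group of 5.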

How the data were processed

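Total RNA of 42 Hep3B cultures was measured by array. The deposited values are linear intensities, 1 per probe and array, with a mean near 1. The scanner, the background step and the scaling are not stated in the sources used here. At most 2.12% of an array's values lay below 0. Values were quantile normalized with limma 3.58.1 in R 4.3.3, with a floor at the 1st percentile of all normalized values before log2. A limma fit of the 42 arrays held the pairs as a block and the CM effect of each time (14 residual degrees of freedom), with Benjamini-Hochberg adjustment over 13824 probes at a threshold of 0.05. The SE pools the spread over times. Pairs come from the labels, and deviations of paired arrays correlated at 0.308 to 0.754, above 0.1 in 21 of 21 pairs. NCM over time was fitted on 21 arrays with no block.

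Of 7336 probes with 1 gene, 7322 matched a GRCh38.p14 gene table by Entrez ID, and a gene was represented by its brightest probe. Promoters came from the RefSeq table. The members and lists were chosen with earlier results of these data known. Named genes were both members, NFKBIA, NFKB1, list genes past the threshold, and per member the 5 most correlated genes. Per list, the 3 genes with the largest early and the 3 with the largest late mean were also named. CXCL6, CCL8, CXCR4, TNFAIP2, SOD2, IL1R1 and second probes were added after their values were seen. The alternatives are in the closing section. Steps were tested on simulated data.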

Additional observations from a re-analysis of the deposited data

Results flagged for a closer look

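For NFKBIA every pair was lower in CM at T0 and every pair higher at 30 min, 1 h and 3 h. Its mean difference at these times lay above that at T0 by 1.36, 1.50 and 0.96 on the log2 scale. For NFKB1, on its brightest probe, every pair was lower in CM at 30 min. Every pair of that probe was higher at 1 h and 3 h, a gap of 0.90 and 1.44. Of all probes, 8.8% at 30 min, 15.6% at 1 h and 14.6% at 3 h were higher in 3 of 3 pairs. The differences between times were not tested. Neither CXCL2 nor CCL20 showed such opposite directions between any 2 times. Groups of 3 arrays are too small for a check of single outlying arrays.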

How the results depend on the processing

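For the changes of CXCL2 and CCL20, 248 of 250 values under other settings moved by less than the SD between pairs. Many of these values could not move. Estimates of both members stayed equal without the block, with the higher floor, without the dimmest probes and with each time alone. They also stayed equal with the intensity trend and with the mean of a gene's probes. The SD between pairs was itself wide, up to 1.09 for CCL20 at 15 min, so nothing is read from the count. The CXCL2 difference at 1 h ranged over its alternatives from 0.88 to 1.05, its early mean from 0.34 to 0.54 and its late mean from 0.23 to 0.42, all positive. The CCL20 difference at 16 h ranged from 0.91 to 1.79, its late mean from 0.73 to 1.25, also all positive, and its early mean from -0.35 to 0.16. For CCL20 at 16 h and its late mean the lowest values came without experiment 2 and the highest without experiment 3. For its early mean the lowest came without experiment 1 and the highest without experiment 2. As deposited, CXCL2 had 0.77 at 30 min, and with median centring CCL20 had 0.17 at T0. Means over 3 times were not computed with each time fitted alone. Without the pairs as a block, estimates were equal by construction, with an SE of 0.30 in place of 0.22 for CXCL2 and 0.39 in place of 0.36 for CCL20. No list had a gene called under any alternative.

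Counts of called probes were small and moved. At 1 h they were 0 to 1 when a replicate was left out. At 3 h 1 probe was called with the floor at the 10th percentile, without the dimmest 25% or 50% of probes and with an intensity trend, against 0. At 16 h, against 1, it was 0 without the replicate block, on deposited values, with median centring, with each time alone, minus T0 and without any 1 replicate (0 to 0), 2 with the higher floor or without the dimmest 25%, 7 without the dimmest 50% and 3 with the trend. For the late mean, against 6, it was 0 without the replicate block, minus T0 and without any 1 replicate (0 to 0), 1 as deposited or with median centring, and 10 with the trend. Late minus early gave 1 without the dimmest 50% and with the mean of a gene's probes, against 0. The cause was not tested.

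In NCM the 16 h minus T0 difference of CXCL2 was -0.040 without replicate 2, in a range of -0.040 to 0.41 without single replicates (limma adjusted p 0.7 to 1). That of CCL20 ranged from -1.31 to -0.22 (limma adjusted p 0.731 to 1). NCM over time called 2 probes, 1 as deposited or with median centring and 0 without any 1 replicate (0 to 0). The experiment number as a block left F at 1.69 for CXCL2 and 1.43 for CCL20, with adjusted p = 1.00 by limma; 13 of 21 NCM arrays correlated best with their own number, which the labels do not tie across times.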

Other observations

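Over all probes rather than the brightest of each gene, probe 8924 of FGG, a fibrinogen chain gene of the acute phase response, had the highest correlation with CCL20, r = 0.90 over the 21 pair differences. It had a log2 difference of 0.02 in the mean of 15 min, 30 min and 1 h, 0.58 in that of 3 h, 6 h and 16 h, and 0.82 at 16 h. It was picked after its values were seen, as the highest of 13823 probes ranked, and is not the brightest probe of FGG. Another FGG probe, 611, had -0.12, 0.47 and 0.47 in the same order, and its correlation with CCL20 is not given here.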
